A study of Mus musculus with 6 samples.

Results

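The 10 genes described here are markers that antibody-secreting plasma cells are known for: Sdc1, Jchain, Mzb1, Ell2, Tent5c, Pon3, Ly6c2, Cd93, Cd28 and Epcam. They were taken by gene symbol from the deposited count tables, which list 55401 genes, and each symbol matched a single entry in every table. The tables come from RNA sequencing of germinal centre B cells sorted from the spleens of C57BL/6 mice of WT genotype, with 3 libraries of a subset labelled DP and 3 of a subset labelled DN. All mice had received sheep red blood cells (SRBC), a T-dependent antigen, by intraperitoneal injection, were challenged with them again on day 5 and were killed on day 12. The labels do not say which surface markers DP and DN stand for and give no age, and all libraries carry the same batch label. Both subsets were taken from each of 3 mice, according to the submitters' design text. Nothing in the labels ties a library to a mouse, so the p-values measure only the spread between libraries, which may be technical.

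A B cell that leaves the germinal centre to become a plasma cell turns its metabolism to the making and export of antibody. Ell2 helps RNA polymerase II switch immunoglobulin heavy chain transcripts from the membrane to the secreted form, Tent5c lengthens the poly(A) tails of transcripts made at the endoplasmic reticulum (ER), Mzb1 assists folding of immunoglobulin in the ER, and the J chain, encoded by Jchain, links IgM and IgA into polymers. Sdc1 (syndecan-1, CD138) is the standard surface marker of mouse plasma cells, and Cd93, Cd28, Ly6c2 and Epcam encode further surface proteins found on some plasma cells as well as on other cell types. Pon3 encodes a lactonase of the paraoxonase family.

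Gene counts per library lay between 17509384 and 20538024 in DP and between 8904415 and 11897360 in DN, so that DP libraries were on average 1.88 times deeper. Levels below are CPM, counts divided by library size, with the size adjusted by TMM factors for differences in RNA composition. Each change is a log2 ratio of DP over DN, with its standard error. A floor of 3 counts stood for 0.155 to 0.183 CPM in DP libraries and 0.236 to 0.315 CPM in DN libraries, which covers counting error only. Markers of the labelled cell type were present in every library: all 13 germinal centre genes of the marker list were tested, and their summed level was 1750 to 1818 CPM in DP and 5246 to 5352 CPM in DN. Of these 13, 12 were called lower in DP and 1, Mef2b, higher (0 higher with library totals alone), with a median log2 change of -1.07. The part of this difference in the fall of members was not tested.

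The plasma cell markers moved in both directions. Of the 8 members with enough counts for a test, 2 rose in DP (Sdc1 and Epcam), 4 fell (Jchain, Cd93, Pon3 and Ell2) and 2 did not pass (Mzb1 and Tent5c). The test was edgeR's quasi-likelihood test with Benjamini-Hochberg adjustment over 11296 genes, at an adjusted p under 0.05. It called 75.9% of all tested genes, 38.3% higher and 37.6% lower in DP, so that a call on its own does not set a member apart. With library totals alone in place of TMM factors, which moved the median gene by -0.20, 3290 genes were called higher and 5355 lower, against 4328 and 4243 with TMM, while the members' counts stayed at 2 and 4. In 7 of the 8, all DP libraries lay above or all lay below the DN libraries, which held for 77% of all tested genes. The median log2 change of the 8 tested members was -0.11 and that of all tested genes 0.01. Sdc1 and Epcam passed the filter through their DP counts and Cd93 through its DN counts, so the share of called members supports nothing about the group. Ly6c2 and Cd28 had too few counts for the test. In sorted bulk samples, fewer cells that carry a transcript and less of it per cell cannot be told apart.

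**Figure D1:**
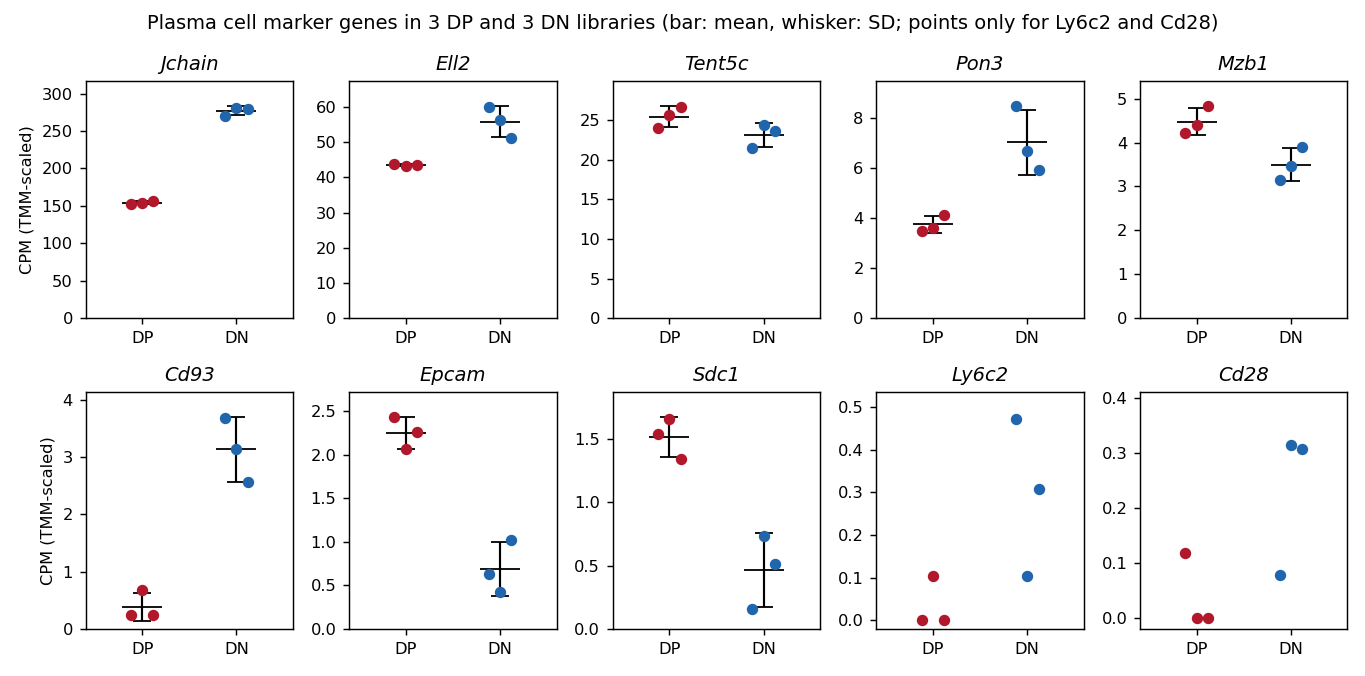
Level of each member in the 3 DP libraries (red) and the 3 DN libraries (blue), in TMM-scaled CPM on a linear axis of its own per gene, ordered by the DN mean. Each point is a library, the bar is the mean and the whisker the SD; Sdc1, Epcam and Mzb1 lie wholly higher in DP, Jchain, Ell2, Pon3, Cd93 and Ly6c2 wholly lower, and Tent5c and Cd28 overlap.

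Per length of annotated exons, Jchain stood far above the other members in both subsets, at 61.3 ± 0.943 CPM per kb in DP and 110.0 ± 2.30 CPM per kb in DN (SD, n = 3 each). This placed it above 92.7% of tested genes in DP and above 96.7% in DN. Ell2, Tent5c, Mzb1 and Pon3 followed in that order in both subsets, between 1.11 and 4.42 CPM per kb in DP and between 2.08 and 5.68 CPM per kb in DN. Tent5c and Mzb1 overlapped in DP, as did Pon3 and Epcam. The place of Mzb1 depends on which of its bases could be counted, since many are shared with another gene model. If all its counts came from its 520 unshared bases, a setting added after seeing the data, its level would be 8.61 ± 0.603 CPM per kb in DP and 6.73 ± 0.729 CPM per kb in DN. Both means lie above those of Ell2, but in DN the ranges of the libraries overlap. The surface markers came last, and their order differed between the subsets: in DP, Epcam at 1.03 and Sdc1 at 0.397 CPM per kb stood above Cd93 at 0.0576, whereas in DN, Cd93 at 0.469 stood above Epcam at 0.315 and Sdc1 at 0.123. In DN the ranges of Cd93 and Epcam overlapped, and so did those of Epcam and Sdc1. Ly6c2 and Cd28 were the lowest in both subsets, and their ranges overlapped with each other and with the gene above them.

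The members lie on 10 different chromosomes, and 8 of them have no exonic overlap with another annotated gene. RefSeq start-site windows (GRCm38.p6, the assembly behind mm10) of 300 bases were searched for 7 members, Sdc1, Jchain, Ell2, Tent5c, Pon3, Ly6c2 and Epcam, on both strands. The letters searched were GTGAAAG (core of the PRDM1 site), TGACGTG (core of the XBP1 response element), CACGTG (E box), ATGCAAA (core of the octamer) and TGANTCA (a loose form of the AP-1 site, with any base at N). They occur in 4.24%, 2.01%, 7.15%, 4.63% and 7.81% of all 32851 windows of that length. The members held 2 matches, a loose AP-1 match (TGAATCA, with A at N) 242 bases before the start of Pon3 and an E box 30 bases after the start of Epcam. The bases before the start that lie outside annotated exons are printed for Jchain, the most abundant member and lower in DP, for Pon3, also lower, and for Epcam, higher in DP. They are chr5:88527898-88528147 (minus strand), chr6:5256287-5256483 (minus strand) and chr17:87635729-87635978 (plus strand), read from 5′ to 3′, with the AP-1 match in capitals.
Jchain: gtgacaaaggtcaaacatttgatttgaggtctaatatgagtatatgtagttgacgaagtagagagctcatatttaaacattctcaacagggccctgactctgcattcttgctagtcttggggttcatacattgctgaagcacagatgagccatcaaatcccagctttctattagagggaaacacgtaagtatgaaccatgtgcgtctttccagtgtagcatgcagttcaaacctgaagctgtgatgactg
Pon3: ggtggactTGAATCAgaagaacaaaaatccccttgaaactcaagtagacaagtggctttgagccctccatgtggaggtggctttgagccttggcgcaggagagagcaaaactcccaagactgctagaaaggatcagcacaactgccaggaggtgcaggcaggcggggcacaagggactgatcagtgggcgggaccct
Epcam: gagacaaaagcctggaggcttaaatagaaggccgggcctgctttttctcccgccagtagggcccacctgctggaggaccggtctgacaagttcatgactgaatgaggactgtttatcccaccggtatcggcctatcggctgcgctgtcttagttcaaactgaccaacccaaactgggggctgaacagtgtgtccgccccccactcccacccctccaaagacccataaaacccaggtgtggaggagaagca
The printed stretch of Jchain holds 42.0% G or C, that of Pon3 54.8% and that of Epcam 56.4%. Where no match was found, these letters do not occur in the window, which says nothing of the factors.

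Jchain (ENSMUSG00000067149.6, protein-coding, chr5:88519809-88527891 in the mm10 build, minus strand) was lower in DP. It had 152, 154 and 157 CPM in the DP libraries, against 270.3, 281 and 280 CPM in the DN libraries. The groups lay far apart and each was tight, with a coefficient of variation of 1.54% in DP and 2.09% in DN. The log2 change was -0.84 ± 0.04 (edgeR adjusted p = 2.06e-28), so that the mean DP level was 55.7% of the DN level. The size of this change exceeded that of 68.5% of all tested genes.

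The heavy chain genes of IgM and IgA, the classes that J chain links, were lower in DP as well. So were most other constant region genes. Of 11 constant region genes tested, 10 fell and the change of Iglc2 did not pass, and the median was -0.67. Ighm, the heavy chain of IgM, averaged 554 ± 8.09 CPM in DP and 812 ± 17.4 CPM in DN (-0.55 ± 0.03), and Igha, the heavy chain of IgA, averaged 1.27 ± 0.371 CPM in DP and 5.29 ± 1.65 CPM in DN (-2.06 ± 0.23). Ighg1 fell by 0.53 ± 0.03 and the light chain gene Igkc by 0.60 ± 0.04. A ratio of counts within a library does not depend on its depth or scaling. Per 100 counts of Ighm, the DP libraries held 27.2, 27.7 and 28.8 Jchain counts and the DN libraries 34.1, 34.3 and 33.9. The ratio was thus 27.9 ± 0.826 in DP and 34.1 ± 0.180 in DN (SD, n = 3 each), and every DP library lay below every DN library. Per 100 counts of the 11 constant regions together, it was 5.58 ± 0.0909 in DP and 6.75 ± 0.0473 in DN. For both ratios the exact two-sided permutation p was 0.1, the smallest that 3 against 3 can give, and 0.14 when adjusted over the 7 ratios that were computed.

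**Figure D2:**
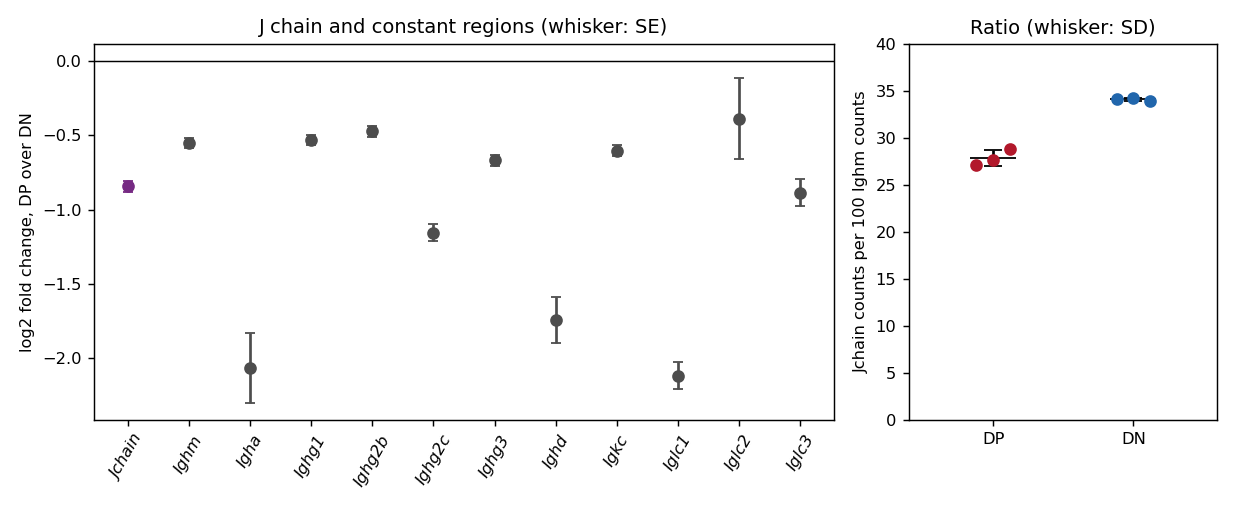
Left, log2 fold changes of DP over DN with standard errors for Jchain (purple) and 11 immunoglobulin constant region genes (grey). Right, Jchain counts per 100 Ighm counts in each of 3 DP and 3 DN libraries, with mean and SD; the ratio was 27.9 in DP and 34.1 in DN.

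Ell2 (ENSMUSG00000001542.7, protein-coding, chr13:75706757-75772364, plus strand) was moderately lower in DP. It had 43.7, 43.2 and 43.5 CPM in DP libraries, against 59.98, 56.2 and 51.3 CPM in DN libraries. The DP libraries were nearly equal, the DN libraries spread more, and the groups did not overlap. The log2 change was -0.37 ± 0.06 (edgeR adjusted p = 1.60e-07). It was called in every alternative fit except the one that asks for a change of more than 1.5-fold (adjusted p = 1). Among its partners in transcription elongation and RNA 3' end formation, 16 genes were tested, of which 4 rose, 6 fell and the median change was -0.02. Aff4, the scaffold of the super elongation complex, fell to 118 ± 4.98 CPM in DP, against 335 ± 16.6 CPM in DN (-1.503 ± 0.04). Eaf2, an ELL-associated factor, fell by 1.70 ± 0.05 and Ccnt2, a cyclin of the elongation kinase, by 0.81 ± 0.05. Cpsf1, a subunit of the cleavage and polyadenylation complex, rose by 0.76 ± 0.06.

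Tent5c (ENSMUSG00000044468.14, protein-coding, chr3:100451628-100489324, minus strand) did not pass the test. It had 24.0, 25.6 and 26.6 CPM in DP libraries, against 21.4, 24.3 and 23.6 CPM in DN libraries, and the groups overlapped. The log2 difference was 0.14 ± 0.08 (edgeR adjusted p = 0.0971), with TMM factors, and -0.05 with library totals alone. Without DP replicate 1 it was 0.19 with an adjusted p of 0.0493. Of its relatives, Tent5b and Tent5d had no count in any library, and Tent5a averaged 0.434 ± 0.236 CPM in DP and 0.876 ± 0.0627 CPM in DN (-0.99 ± 0.44, adjusted p = 0.0387). The call of Tent5a, which had 23 DP counts and 28 DN counts in all, was lost without DP replicate 2 or 3 or any DN library, with adjusted p between 0.062 and 0.21. Fndc3a, which encodes an ER protein that binds TENT5C, fell by 0.70 ± 0.07.

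Mzb1 (ENSMUSG00000024353.5, protein-coding, chr18:35647267-35649367, minus strand) stood slightly above its DN level in every DP library, but the difference did not pass. It had 4.21, 4.40 and 4.82 CPM in DP libraries, against 3.14, 3.46 and 3.895 CPM in DN libraries. The log2 difference was 0.36 ± 0.18 (edgeR adjusted p = 0.0654). Without DN replicate 3 it was 0.45 with an adjusted p of 0.0459. The annotation limits this value: 57.2% of the exonic bases of Mzb1 are also exonic in Gm50318 (ENSMUSG00000117874.1, named SPATA24 in the annotation used for positions), a gene model on the same strand that runs on into the separate gene Spata24. Counting that leaves out reads shared by overlapping genes would miss reads in those bases, and Gm50318 itself had no count in any library. The sources used here do not give the counting settings, so the low level of Mzb1 may not be its full level.

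Genes of antibody folding and export in the ER were mostly higher in DP. Among 25 tested genes of this list, which also holds the regulator gene Xbp1, 17 were called higher in DP and 5 lower, at a median of 0.84. With library totals alone, 8 were lower. Hsp90b1, the ER chaperone that Mzb1 binds, averaged 1257 ± 33.2 CPM in DP and 465 ± 8.98 CPM in DN (1.43 ± 0.04). Hspa5 (BiP) rose by 1.67 ± 0.04, the disulfide isomerase gene Pdia4 by 1.72 ± 0.04 and the chaperone gene Hyou1 by 1.69 ± 0.04. Per 100 counts of Hsp90b1, Mzb1 had 0.329, 0.361 and 0.379 counts in DP libraries, against 0.661, 0.753 and 0.846 in DN libraries (exact two-sided permutation p = 0.1, the smallest possible; 0.14 adjusted over the 7 ratios). The 5 genes that fell, named here after their values were seen, were Txndc11, Edem1, Erp44, Dnajb9 and Ero1lb. Erp44, which retains unassembled IgM in the early secretory pathway, fell by 0.43 ± 0.04.

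Sdc1 (ENSMUSG00000020592.14, protein-coding, chr12:8771323-8793715, plus strand) was higher in DP but low in both subsets. The DP libraries held 26, 32 and 22 counts, or 1.54, 1.66 and 1.34 CPM, against 2, 7 and 5 counts, or 0.157, 0.734 and 0.513 CPM, in the DN libraries. DN replicate 1 was below the floor of 3 counts, and the groups did not overlap. The log2 change was 1.77 ± 0.40 (edgeR adjusted p = 8.72e-05). The ratio of normalised counts was 3.48, with an interval of 1.96 to 6.65 (95%, exact, counting error only). The log2 change ranged from 1.28 without DN replicate 1 to 2.26 without DN replicate 2 and was called each time. Even in DP, Sdc1 stood above only 9.62% of tested genes per length. Its relative Sdc4 was more abundant in both subsets and averaged 12.0 ± 0.612 CPM in DP and 8.90 ± 1.35 CPM in DN (0.42 ± 0.12), a call that was lost with library totals alone (0.22, adjusted p = 0.0805). Sdc3 averaged 6.69 ± 0.327 CPM in DP and 7.40 ± 0.137 CPM in DN (adjusted p = 0.322), and with library totals alone it was lower in DP (-0.34, adjusted p = 0.0207).

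Epcam (ENSMUSG00000045394.9, protein-coding, chr17:87635979-87651129, plus strand), which encodes an adhesion molecule best known from epithelia, was likewise higher in DP and low in both subsets. It had 41, 40 and 37 counts in DP libraries, or 2.43, 2.07 and 2.26 CPM, against 8, 4 and 10 counts in DN libraries, or 0.628, 0.419 and 1.03 CPM. All DP libraries lay above all DN libraries. The log2 change was 1.70 ± 0.33 (edgeR adjusted p = 5.91e-06), and the count ratio was 3.27 with a 95% exact interval of 2.06 to 5.41. Of the 13 genes in the epithelial and stromal list, 3 were tested and Krt18 fell in DP (-1.92 ± 0.43). The list summed to 3.66 to 4.97 CPM in DP and 4.79 to 6.77 CPM in DN, and Cldn4, Cldn7 and Ccl19 had no count in any library. Krt8 had 22 counts in DP and 17 in DN in all. As DP libraries were deeper, Krt8 averaged 0.409 ± 0.222 CPM in DP and 0.529 ± 0.0189 CPM in DN, with overlapping ranges. No DP library exceeded the DN range of the summed list. The part of epithelial cells in the rise of Epcam was not tested.

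Cd93 (ENSMUSG00000027435.8, protein-coding, chr2:148436640-148443563, minus strand) had the largest change of the 8 tested members. It had 4, 13 and 4 counts in DP libraries, or 0.237, 0.673 and 0.244 CPM, against 47, 30 and 25 counts in DN libraries, or 3.69, 3.15 and 2.56 CPM. DP replicate 2 was the highest of the DP libraries and still lay well below every DN library. The log2 change was -2.97 ± 0.33 (edgeR adjusted p = 6.73e-12), and it was -3.66 without DP replicate 2. The count ratio of 0.125, with a 95% exact interval of 0.0744 to 0.202 rests on 21 DP counts and 102 DN counts in all. Of all tested genes, 98.0% changed less.

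Cd93 is also carried by immature B cells, endothelial cells and some myeloid cells, and their marker lists differed in level. Endothelial genes were near the floor, with none of 10 passing the filter and a sum of 0.732 to 0.983 CPM in DP and 0.615 to 1.36 CPM in DN. Emcn, Tie1 and Robo4 had no count, and the defining gene Cdh5 had 30 counts in DP and 26 in DN. As DP libraries were deeper, Cdh5 averaged 0.564 ± 0.125 CPM in DP and 0.791 ± 0.257 CPM in DN, with overlapping ranges. In the immature B cell list, Dntt and Igll1 had no count, while Rag1, a recombinase gene, had none in DP and 10, 2 and 6 in the DN libraries. Rag2 and Vpreb1 did not follow Rag1, each with 1 count in DP replicate 1 and 0 in DN. Il7r had 3, 1 and 4 counts in DP libraries, against 2, 2 and 9 in DN libraries. Of the 2 tested genes of this list, named here after their values were seen, Vpreb3, known from B cell precursors, fell to 2.60 ± 0.745 CPM in DP, against 5.79 ± 0.711 CPM in DN (-1.17 ± 0.19). The other, Cd24a, which many cell types express, was called higher by 0.08 ± 0.04, a call lost without DP replicate 1, DP replicate 2, DN replicate 1 or DN replicate 3. With library totals alone Cd24a was called lower. Cd24a made up most of the list's sum of 331 to 339 CPM in DP and 313 to 335 CPM in DN. In the monocyte and macrophage list, 8 of 10 tested genes were lower in DP and 2 higher (1 higher without DP replicate 1, DP replicate 2, DN replicate 2 or DN replicate 3), and the sum was 58.4 to 60.5 CPM in DP and 78.2 to 86.4 CPM in DN. Most of that sum was Mpeg1, at 33.8 ± 0.553 CPM in DP and 45.0 ± 1.59 CPM in DN. The 2 higher genes, named here after their values were seen, were Ms4a6c (1.10 ± 0.15) and Cd68 (0.52 ± 0.22). Lyz2 averaged 1.91 ± 0.329 CPM in DP and 6.14 ± 0.939 CPM in DN, Csf1r averaged 1.53 ± 0.321 CPM in DP and 3.06 ± 0.897 CPM in DN, and Cd14 had no count. The part of these cell types in the fall of Cd93 was not tested.

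Ly6c2 (ENSMUSG00000022584.14, protein-coding, chr15:75108158-75111970, minus strand), a surface protein of monocytes and of some plasma and T cells, was barely detected. It had 0, 2 and 0 counts in DP libraries, against 6, 1 and 3 counts in DN libraries. The groups were separated, narrowly, with the highest DP library at 0.103 CPM and the lowest DN library at 0.105 CPM. The count ratio was 0.122 with a 95% exact interval of 0.0130 to 0.572. Of its distinct stretches of 50 bases, 14.5% also occur in transcripts of other genes, mostly of its paralogue Ly6c1, so reads from them cannot be assigned with certainty. Ly6c1 itself had a single count, in a DN library. The related Ly6a and Ly6e were expressed at higher levels and fell by 0.20 ± 0.07 and 0.29 ± 0.05, Ly6k rose by 1.82 ± 0.44, and Ly6d differed by -0.34 ± 0.27 without passing. The call of Ly6a was lost without DP replicate 1, DP replicate 3 or DN replicate 2, with adjusted p between 0.0568 and 0.0792. In the neutrophil list, both tested genes fell, Ly6g had no count, and the sum was 0.549 to 0.879 CPM in DP and 2.75 to 3.57 CPM in DN. Both tested genes passed the filter through their DN counts, so the share of called genes supports nothing about that list.

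Cd28 (ENSMUSG00000026012.2, protein-coding, chr1:60716800-60773359, plus strand), the costimulatory receptor of T cells, was at the limit of detection as well. It had 2, 0 and 0 counts in DP libraries, against 1, 3 and 3 counts in DN libraries, and the groups overlapped in CPM. The count ratio was 0.174 with a 95% exact interval of 0.0176 to 0.914. Defining T cell genes were as scarce: Cd3e had 1, 0 and 1 counts in DP libraries, against 2, 4 and 7 in DN libraries, and Cd3d had 2, 1 and 0 in DP libraries, against 3, 2 and 2 in DN libraries. Of the 18 T cell genes, 4 were tested. Thy1 and Lck were called higher in DP and Cd4 lower, named here after their values were seen. Thy1 averaged 5.26 ± 0.222 CPM in DP and 1.14 ± 0.119 CPM in DN (2.21 ± 0.23). Its counts were 276 in DP and 36 in DN in all. Cd4 averaged 0.570 ± 0.0218 CPM in DP and 1.27 ± 0.229 CPM in DN (-1.12 ± 0.37). The call of Lck (0.19 ± 0.06) was lost with library totals alone, which left 1 higher and 2 lower. The lower count was also 2 without DN replicate 1 or DN replicate 3. The list summed to 65.1 to 66.9 CPM in DP and 54.3 to 62.5 CPM in DN, most of it Lck, which averaged 57.8 ± 1.41 CPM in DP and 50.7 ± 4.00 CPM in DN. The part of T cells in the counts of Cd28 was not tested. The CD28 ligand Cd86 was lower in DP at 39.3 ± 0.683 CPM, against 77.3 ± 1.81 CPM in DN (-0.97 ± 0.05), and Icosl, a ligand of the same family, fell by 3.53 ± 0.11. The other CD28 ligand, Cd80, was called higher and averaged 2.52 ± 0.199 CPM in DP and 1.58 ± 0.165 CPM in DN (0.68 ± 0.25, edgeR adjusted p = 0.0136), a call lost without DN replicate 1 and with library totals alone. Of 9 tested ligand and adaptor genes, 2, Cd80 and Lck, were higher in DP (1 without DN replicate 1 and 0 with library totals alone) and 5 lower, Pik3r1 (-0.56 ± 0.05) and Grb2 (-0.15 ± 0.04) among the lower ones.

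Pon3 (ENSMUSG00000029759.9, protein-coding, chr6:5220852-5256286, minus strand) was lower in DP. It had 3.50, 3.62 and 4.15 CPM in DP libraries, against 8.48, 6.71 and 5.95 CPM in DN libraries. The groups did not overlap, and DN replicate 1 was the highest. The log2 change was -0.93 ± 0.16 (edgeR adjusted p = 8.87e-07) and ranged from -1.03 to -0.75 with 1 library left out. The paralogue Pon2 fell as well, at 10.46 ± 0.620 CPM in DP and 20.9 ± 0.386 CPM in DN (-0.996 ± 0.10). Per 100 counts of Pon2 there were 36.0 ± 4.599 counts of Pon3 in DP and 33.7 ± 6.42 in DN (exact two-sided permutation p = 0.6, n = 3 each).

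**Figure D3:**
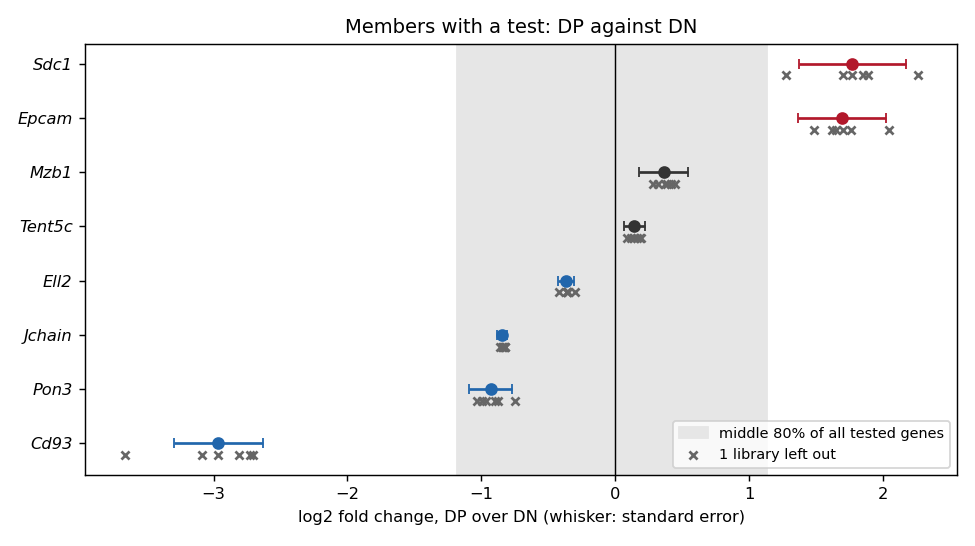
Log2 fold changes of DP over DN with standard errors for the 8 tested members, red where called higher in DP, blue where called lower and dark grey where not called. Crosses give the values with 1 library left out, and the grey band spans the middle 80% of all tested genes (-1.18 to 1.14); Sdc1, Epcam and Cd93 lie outside it.

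Other regulators and markers of the plasma cell programme also moved in both directions. So did all tested genes, with 38.3% called higher and 37.6% lower in DP, and movement in both directions does not set these lists apart. Of 18 tested genes in the list of plasma cell transcription factors, 11 were higher and 6 lower in DP (median 0.15), while with library totals alone 6 were higher. The list mixes roles: Mef2b, also a germinal centre marker, is among the higher genes, and Ets1, which restrains plasma cell formation, among the lower. The counts and the median therefore do not measure a rise or fall of the programme. Irf4 averaged 70.4 ± 1.43 CPM in DP and 12.0 ± 0.586 CPM in DN (2.54 ± 0.07). Prdm1, which encodes BLIMP-1, had 63, 60 and 60 counts in DP libraries, against 14, 9 and 17 in DN libraries, and averaged 3.50 ± 0.345 CPM in DP and 1.26 ± 0.424 CPM in DN (1.47 ± 0.26). Xbp1, the regulator of the secretory apparatus, rose by only 0.31 ± 0.05, and Arid3a rose by 0.94 ± 0.04. Ets1, which restrains plasma cell formation, fell by 1.78 ± 0.04, and the B cell coactivator gene Pou2af1 fell by 0.83 ± 0.04.

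Of 15 tested surface and identity genes of plasma cells outside the members, 5 were higher and 5 lower in DP (median 0.01). Slamf7 averaged 95.7 ± 0.909 CPM in DP and 216 ± 6.98 CPM in DN (-1.18 ± 0.04), and the egress receptor gene S1pr1 fell by 1.45 ± 0.17. The largest changes of that list were the rise of the cyclin gene Ccnd2 (5.14 ± 0.11) and the fall of Trp53inp1 (-4.61 ± 0.10). Tnfrsf17, which encodes the plasma cell receptor BCMA and was named after its values were seen, had no count in DP and 3 counts in DN, all in DN replicate 3. Of 22 tested genes that plasma cells shut off, 19 were lower in DP and 2 higher (median -0.58; 1 higher with library totals alone). They included Bach2, which averaged 33.3 ± 2.13 CPM in DP and 319 ± 1.71 CPM in DN (-3.26 ± 0.05), Cr2 (-2.56 ± 0.05) and Cd79b (-1.82 ± 0.04).

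Among the paralogues of the members, 10 of 22 were tested, of which 2 were higher in DP and 5 lower, at a median of -0.25. Sdc4 and Ly6k were the higher ones, and the count was 1 without DP replicate 2 or 3 and with library totals alone. The lower count was 3 without DP replicate 3 or DN replicate 2. In the remaining marker lists, all 3 tested dendritic cell genes were higher in DP, 7 of 8 tested naive B cell genes were lower and 1 higher, and all 7 tested erythroid genes were lower. Their sums were 41.5 to 43.6 CPM in DP and 24.7 to 25.4 CPM in DN for dendritic cells, 268 to 281 CPM in DP and 695 to 706 CPM in DN for naive B cells, and 16.1 to 18.4 CPM in DP and 63.4 to 73.6 CPM in DN for erythroid cells. Nearly all of the dendritic cell sum was Flt3, at 40.3 ± 1.23 CPM in DP and 24.6 ± 0.206 CPM in DN. Xcr1, Cd209a and Cd300c of that list had no count in any library. Zbtb46 had 29, 33 and 27 counts in DP libraries and 0 in each DN library. Itgax, named after its values were seen, had 15, 14 and 12 in DP, against 4, 3 and 3 in DN. Both passed the filter through their DP counts, so the share of called genes supports nothing about that list. Clec9a and Siglech, also named afterwards, were not tested and had 0 counts in DP, against 2 and 3 in DN.

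**Figure D4:**
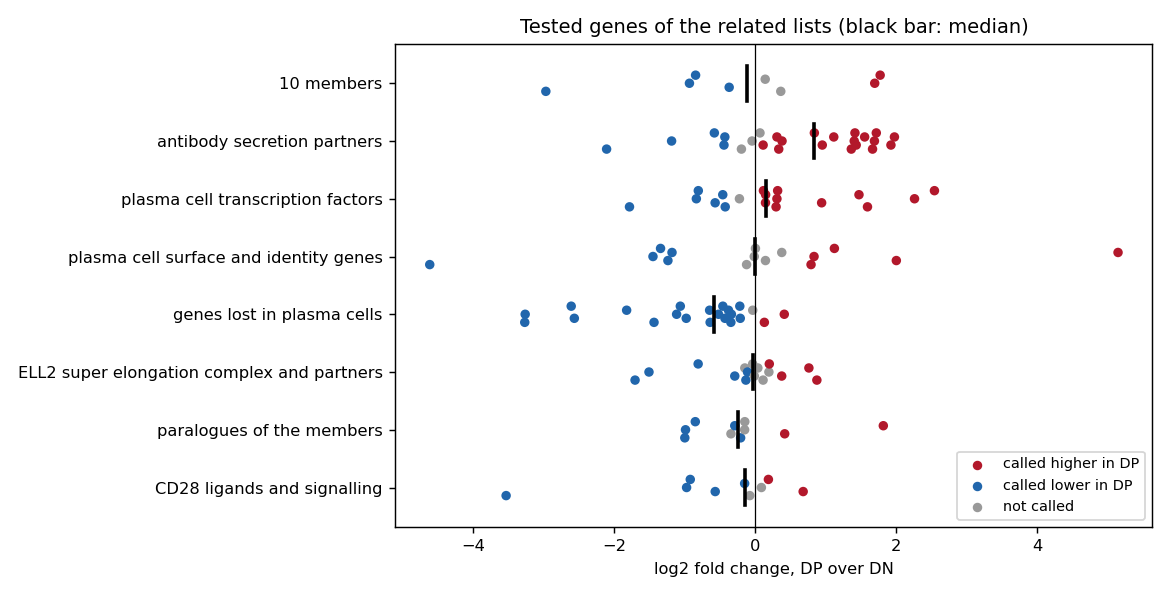
Log2 fold changes of DP over DN for the tested members and the tested genes of 7 related lists, each point a gene, red where called higher in DP, blue where called lower and light grey where not called. Black bars are medians, which range from 0.84 for the antibody secretion partners to -0.58 for genes lost in plasma cells and stand at -0.11 for the members.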

How the data were processed

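Polyadenylated RNA of 3 DP and 3 DN libraries was measured. The authors deposited a table for each library with raw, unscaled counts of reads by gene. The submitters' processing notes name HTSeq 0.13.5, STAR 2.7.10a, Trim Galore 0.6.6 and the mm10 build. The sources used here do not give the tools' settings, the strand setting, the annotation release or any handling of molecular identifiers. Per the labels' protocols, the library kit was stranded. The 5 summary rows held 9.47% to 9.61% of counts in DP and 12.4% to 12.9% in DN and were left out.

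DP was compared with DN over all genes with edgeR 4.0.16 in R 4.3.3: TMM factors, filterByExpr (minimum count 10, 11296 genes kept), glmQLFit with robust estimation, glmQLFTest without a block, Benjamini-Hochberg adjustment and a threshold of 0.05. Standard errors came from the log2 fold change and its F statistic. The script was tested on simulated data. Count ratios carry exact binomial intervals at 95%, which cover counting error only, since reads are not independent molecules. Ratios of counts within a library were compared by exact permutation. Levels per length used merged exons of GENCODE M21 for mm10, to which 55141 of 55401 identifiers matched. Libraries of a group differed by more than sampling noise, with a chi-square per degree of freedom of 1.96 to 3.24 within DP and 1.98 to 3.26 within DN.

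The members and the 19 gene lists were chosen with earlier results of these data known. Named beside the members were the 4 genes with the smallest p of each related list, fixed regulators and immunoglobulin genes, tested paralogues, and the leading genes of the marker lists with those at 0. Some genes that this rule names are not reported here. Ero1a and Ero1b were matched as Ero1l and Ero1lb. The alternatives were other scalings, filters and tests (DESeq2 1.42.0, limma-voom 3.58.1), a required change of 1.5-fold, normalization without immunoglobulin genes, thinning of DP to 9975209 counts per library, a replicate block, and leaving out each library in turn.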

Additional observations from a re-analysis of the deposited data

How the results depend on the processing

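The calls of Sdc1, Epcam, Jchain, Pon3 and Cd93 held in every alternative in which the gene was tested, and their direction did not change. With the minimum fold of 1.5, the calls over all genes were 1964 higher and 1912 lower in DP, and Ell2 lost its call, which left 2 members higher and 3 lower. With no filter, 4 members were higher, since Mzb1 (0.44, edgeR adjusted p = 0.0496) and Tent5c (0.22, adjusted p = 0.0195) passed as well, and 5 were lower, with Ly6c2 (adjusted p = 0.0300) added on 2 DP and 10 DN counts. With a minimum count of 50, edgeR tested 5 members and called 0 higher, also 0 at an unadjusted p under 0.05, since neither Sdc1 nor Epcam passed the filter; the DESeq2 test at the usual filter called 2. The difference of Tent5c turned to -0.0518 with library totals alone (adjusted p = 0.566). With 1 library left out, 2 or 3 members were called higher and 4 lower. Between same-numbered libraries no clear shared deviation was seen (correlations of 0.056, -0.0061 and -0.018). With 3 libraries per subset this cannot tell whether the numbers pair the samples, since a small effect of a shared mouse could go unseen. With the replicate block, 4338 genes were called higher and 4251 lower, and the members' counts were 2 and 4. Depth limits Ly6c2, Cd28 and the DN values of Sdc1 and Epcam to a few counts per library.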

Other observations

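Both ER oxidase genes that pass electrons to disulfide isomerases were measured, and they moved apart; they were singled out after their values were seen. Ero1l, the widely expressed form, averaged 28.01 ± 2.403 CPM in DP and 9.58 ± 0.602 CPM in DN (1.55 ± 0.10, edgeR adjusted p = 6.74e-22). Ero1lb, the form known from secretory cells such as pancreatic beta cells, averaged 19.6 ± 1.23 CPM in DP and 83.9 ± 2.76 CPM in DN (-2.10 ± 0.06, adjusted p = 5.09e-38). All 3 DP libraries lay above the DN libraries for Ero1l and below them for Ero1lb.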
